A study of Sus scrofa with 10 samples.

Results

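The genes described here are a fixed list of 45 genes of DNA replication and mitosis, of which 42 were found in the deposited counts of the developing pig medial entorhinal cortex (MEC). The list holds 16 replication genes, which act as cells copy their DNA in S phase, and 29 mitosis genes, which act as cells prepare to divide and divide. The files held 15 of the first and 27 of the second among 22452 genes in all. Of these, 40 were found by symbol and 2, BUB1 and KIF23, by their Ensembl ID. The counts of RRM2, CCNA2 and AURKA were not analysed here.

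The study dissociated MEC tissue from pig brains and sequenced single cells or single nuclei with the 10x Genomics version 2 chemistry. Whole cells came from fresh tissue at embryonic day 50 (E50, 1 library), E60 (3 libraries), E70 (3 libraries) and from the adult (1 library), and nuclei came from snap-frozen tissue at E70 (E70_nc) and in the adult (Adult_nc), with 1 library each. None of the groups carried a transgene or a treatment, and by the labels 1 library held the cells of 1 to 3 pooled brains. Replicates exist for the E60 and E70 whole cells alone, and the values of E50, of the adult and of the nuclei have no replicate check.

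A cell that divides first loads the MCM helicase onto its DNA, copies the DNA behind the sliding clamp PCNA with nucleotides made by enzymes such as TYMS, then condenses its chromosomes and pulls them apart on the spindle. In the fetal cortex the cells known to cycle are the radial glia, which are the neural stem cells of the ventricular zone, and the intermediate progenitors, which carry EOMES and divide to give neurons. Oligodendrocyte precursors, microglia, blood vessel cells and erythroblasts also divide in the fetus, while neurons have left the cell cycle.

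The 10 libraries held 28229 cells, with 493 to 8171 cells, 2336865 to 55755512 UMIs and a median of 690 to 9403 UMIs per cell. The E60 libraries 1 and 2 stood apart, since neither held a cell that was classed as an excitatory neuron or an intermediate progenitor. In Adult_nc 76.9% of the nuclei had fewer than 1000 UMIs, against 2.91% in E70_nc and 0% in the whole cells. Barcodes found in more than 1 library numbered 449. Cells were clustered without the genes of the cell cycle lists, and 24267 cells fell into 38 clusters that could be named by marker genes. Radial glia and astrocytes could not be separated by their marker lists and are given as 1 class, astrocyte and radial glia-like cells. Among the 11 classes, some defining markers were near 0, such as HES5 in 0.0691% of the astrocyte and radial glia-like cells and OLIG2 in 0.337% of the oligodendrocyte precursor-like cells.

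To count dividing cells at equal depth, each cell was drawn down at random to 1000 UMIs, and a cell with a UMI of at least 3 different genes of the list was called dividing. Of the 26242 cells with enough UMIs, 3541 were dividing by this call (13.5%, 95% interval 13.1 to 13.9%). The intervals are exact binomial (Clopper-Pearson) intervals and cover counting error only. Most cells were far from the threshold on the low side, since 12797 had a UMI of no gene of the list and 7367 of 1 gene. Just below it lay 2537 cells with 2 genes, just above it 863 cells with 3, and 1824 cells had 6 or more. Of the dividing cells, 59.98% had at least 2 mitosis genes and fewer than 2 replication genes, 15.6% had the opposite, and 24.4% had at least 2 of both. Excitatory neuron-like cells, which should not divide, gave the background of the call. Of these, 2.43% passed (121 of 4971 cells), and 104 of the 121 had exactly 3 genes.

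**Figure D1:**
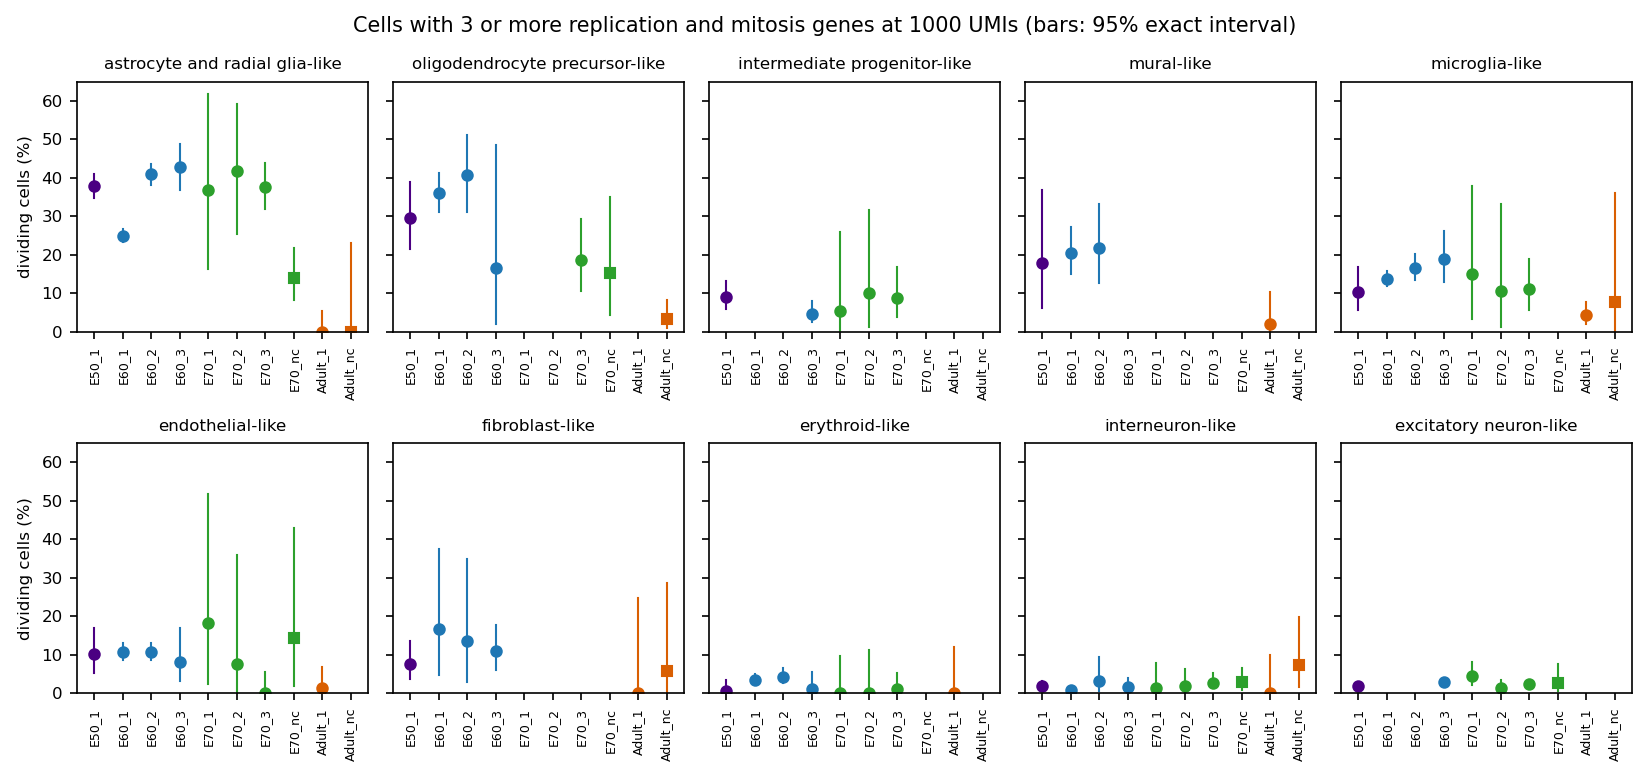
Share of dividing cells (percent of cells thinned to 1000 UMIs that had a UMI of at least 3 different genes of the list) in each library, with 1 panel per cell class. Circles are whole cells, squares are nuclei, and bars are 95% Clopper-Pearson intervals; the astrocyte and radial glia-like cells and the oligodendrocyte precursor-like cells had the highest shares over all libraries (31.7 and 28.1%), and excitatory neuron-like cells lay between 1.40 and 4.44%.

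Of the astrocyte and radial glia-like cells 31.7% were dividing (1834 of 5778), the highest share of the classes when all libraries are summed. Libraries enter the classes in different numbers, and within the E60 libraries 1 and 2 the share was below or level with that of oligodendrocyte precursor-like cells. In E50 whole cells the share was 37.9%. It was 24.9, 40.9 and 42.7% in the E60 libraries 1 to 3 and 36.8, 41.7 and 37.6% in the E70 libraries 1 to 3. The 7 fetal whole cell libraries thus lay within a narrow band apart from E60 library 1, and the first E70 libraries rest on 19 and 36 cells. In the adult no dividing cell of this class was found among 66 whole cells, where 3 counts of the total allow a share of up to 4.55% and the Clopper-Pearson interval ends at 5.44%, and none among 14 nuclei. The E70 nuclei had 14.0% (16 of 114, 95% interval 8.24 to 21.8%), below each of the 7 whole cell libraries. The dividing cells of this class carried its markers, with a UMI of SOX2 in 62.3% of them, VIM in 94.3% and PTPRZ1 in 94.3%. AQP4, an astrocyte water channel, was found in 61.2% and GFAP in 29.9% of the dividing cells, against 74.4 and 46.9% in the whole class.

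These cells lay mostly in 2 clusters. In cluster 7, 92.0% of the cells were dividing (1091 of 1186), and in cluster 31, 97.2% (311 of 320). Although the cell cycle lists were kept out of the clustering, 8 and 9 of the 10 leading genes of these clusters were cell cycle genes and none was a class marker. By the marker UMIs of each cell, 1039 of the 1186 cells of cluster 7 were astrocyte and radial glia-like and 4 intermediate progenitor-like, and 213 and 64 of the 320 cells of cluster 31. EOMES was found in 0.843% of the cells of cluster 7 and 28.1% of those of cluster 31. Of cluster 7, 490 cells came from E60 library 1 and 431 from E60 library 2. The share of the class therefore depends on which cells these clusters took. When each cell was classed by its own marker UMIs instead of by clusters, the share of astrocyte and radial glia-like cells was 35.4% at E50, 22.8, 38.4 and 23.2% at E60 and 5.88, 17.2 and 18.7% at E70.

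Intermediate progenitor-like cells, which carried EOMES in 50.1% of cells, had a low share of 7.20% (47 of 653). The share was 9.09% at E50, 4.62% in E60 library 3 and 5.26% (1 of 19 cells), 10.0% (2 of 20) and 8.89% in the E70 libraries. All 5 values lay above those of the excitatory neuron-like cells of the same library, which were 1.93, 2.88, 4.44, 1.40 and 2.49%. The difference was not tested. Without ANLN, NUSAP1, PCNA and SMC4 in the call, intermediate progenitor-like cells had 0 to 5.30% over the 5 libraries (median 2.69%). Excitatory neuron-like cells then had 0.262 to 1.40% (median 1.32%). Of the 47 dividing cells 36.2% had at least 2 replication genes and fewer than 2 mitosis genes, against 13.1% in astrocyte and radial glia-like cells, but 29.8 and 34.7% in the few excitatory neuron-like and interneuron-like cells that passed the call. With classes from the marker UMIs of each cell, intermediate progenitor-like cells had 22.8% at E50, 54.3% (19 of 35), 63.6% (7 of 11) and 16.9% at E60 and 13.5, 6.67 and 12.5% at E70. These values lay below those of astrocyte and radial glia-like cells, classed in the same way, at E50, in E60 library 3 and in the E70 libraries 2 and 3, and above them in the E60 libraries 1 and 2 and E70 library 1.

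Oligodendrocyte precursor-like cells, which expressed OLIG1 in 65.2% and PDGFRA in 42.6% of cells, had a share of 28.1% over all libraries (229 of 816), of which 120 cells were adult nuclei. The share was 29.7% at E50, 36.0, 40.8 and 16.7% in the E60 libraries 1 to 3, where the last rests on 2 of 12 cells, and 18.7% in E70 library 3. It was 15.4% in the E70 nuclei (4 of 26) and 3.33% in the adult nuclei (4 of 120). In the main cluster of this class (cluster 21), 37.6% of cells were dividing, and 82.1% of the dividing cells of the class had a UMI of OLIG1.

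Microglia-like cells divided at a lower share, 13.4% of 2365 cells. The share was 10.2% at E50, 13.6, 16.6 and 18.9% at E60 and 15% (3 of 20), 10.5% and 11% at E70. In the adult whole cells it was 4.35% (10 of 230), below each fetal library. The class was marked by C1QB in 92.8% of cells and in 99.4% of its dividing cells, while CXCR3 was found in 0.787%.

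Among the cells of the vessels, mural-like cells had a share of 17.9% at E50, 20.6 and 21.7% in the E60 libraries 1 and 2 and 1.92% in the adult (1 of 52). Endothelial-like cells had 10.1% at E50, 10.7, 10.6 and 8.22% at E60 and 18.2% (2 of 11), 7.69% and 0% (0 of 66, with the same upper limits as above) at E70. In the adult 1 of 80 endothelial-like cells was called (1.25%). Fibroblast-like cells had 7.63% at E50, 16.7, 13.6 and 11.02% at E60 and 0 of 13 cells in the adult. In each of these classes the adult whole cells lay below every E50 and E60 library with at least 20 cells.

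Erythroid-like cells were rarely called, with 0.606% at E50, 3.46, 4.30 and 1.01% at E60, 0 of 36, 0 of 31 and 0.971% at E70 and 0 of 29 in the adult. Their 10 highest genes, which are mostly globins, took 68.6 to 91.3% of their UMIs, so that 1000 UMIs held few of other genes. On a scale without these 10 genes (UMIs of the list per 1000000 of the other UMIs) the values were 1148 at E50, 1855, 1938 and 863 at E60, 500.4, 482 and 1130 at E70 and 206 in the adult. On this scale the 4 values of E50 and E60 and that of E70 library 3 lay above those of excitatory neuron-like cells, which ranged from 688 to 849 in fetal whole cells, and those of the E70 libraries 1 and 2 lay below them. HBB, a globin, also had a UMI in 80.4% of the cells of other classes, and its part in the erythroid values was not tested.

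Interneuron-like cells had a share of 1.97% at E50, 0.823, 3.30 and 1.53% at E60 and 1.45, 1.82 and 2.77% at E70. These values overlapped with those of the excitatory neuron-like cells. Of the cells that could not be named, 14.1% were dividing, most of all in cluster 32 (70.7%, 220 of 311 cells).

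Within a library, the share of dividing astrocyte and radial glia-like cells was compared with that of 9 other classes in the fetal whole cell libraries that held at least 20 cells of both. It was higher in 6 of 6 libraries than in erythroid-like cells (by 35.9 percentage points on average, SD 7.47) and interneuron-like cells (by 35.6, SD 6.11), with p = 0.03125 for each by an exact sign-flip permutation test, two-sided, which is the smallest p that 6 libraries allow. After Benjamini-Hochberg adjustment over the 9 classes these exact permutation p-values were 0.141. It was higher in 5 of 5 libraries than in endothelial-like cells (by 28.9) and microglia-like cells (by 22.7) and in 4 of 4 than in excitatory neuron-like (by 37.8), intermediate progenitor-like (by 31.8) and fibroblast-like cells (by 24.3). Over mural-like cells it was higher by 14.5 in 3 of 3 libraries. Oligodendrocyte precursor-like cells did not separate from it, since the difference was 4.02 percentage points on average and ranged from -11.12 to 18.9 over 4 libraries (exact permutation p = 0.625). No class passed an adjusted p of 0.05, and with 3 to 5 libraries none could have reached an unadjusted p of that size. Clusters 7 and 31, led by cell cycle genes, held 1091 and 311 of the 1834 dividing astrocyte and radial glia-like cells. In the other clusters of the class 8.69 to 13.3% of cells were dividing, so all these differences depend on the naming of clusters 7 and 31. With classes from marker UMIs the difference from intermediate progenitor-like cells was -2.77 percentage points on average (higher in 3 of 5 libraries).

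Between E60 and E70 whole cells, no class passed the test of the share of dividing cells. In erythroid-like cells it was 2.92% ± 1.71 at E60 and 0.324% ± 0.561 at E70 (SD, n = 3 each, exact permutation p = 0.1, adjusted p = 0.2 over 2 classes), and every E60 library lay above every E70 library. The closest were E60 library 3, with 1 dividing cell of 99, and E70 library 3, with 1 of 103, so their order rests on the numbers of cells alone. Of the dividing erythroid-like cells, 20 of 28 in E60 library 1 and 15 of 22 in library 2 lay in cluster 22, which held 1, 0 and 3 cells of the E70 libraries. By the marker UMIs of each cell, 76 of the 459 cells of cluster 22 were astrocyte and radial glia-like, against 0 of 1135 in cluster 9. Their part in the share was not tested. In cluster 9, which held most erythroid-like cells of E70, the share was 1.27, 2.87 and 1.04% at E60 and 0, 0 and 1.03% at E70. In interneuron-like cells it was 1.88% ± 1.27 and 2.01% ± 0.681 (exact permutation p = 0.9). With 3 against 3 libraries p cannot go below 0.1. In 3 further classes, added with a minimum of 10 cells per library after the data had been seen, the groups overlapped. Astrocyte and radial glia-like cells had 36.2% ± 9.80 and 38.7% ± 2.60 (exact permutation p = 0.9), microglia-like cells 16.4% ± 2.63 and 12.2% ± 2.46 (exact permutation p = 0.2) and endothelial-like cells 9.84% ± 1.41 and 8.62% ± 9.13 (exact permutation p = 0.7). The library numbers of the study, read here as sequencing pools, put E60_1 with E70_1 and E60_3 with E70_3. Within these pools the difference in astrocyte and radial glia-like cells was 12.0 and -5.10 percentage points and in microglia-like cells 1.36 and -7.88. In endothelial-like cells it was 7.50 and -8.22, in erythroid-like cells -3.46 and -0.0392 and in interneuron-like cells 0.626 and 1.24, so that the last 2 classes kept 1 sign.

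The levels of single genes are given as UMIs of the gene per 1000000 UMIs of the class (CPM). Introns were counted, so that levels are compared for 1 gene between classes or libraries and not between genes. Where several values are given they follow the order of the libraries 1 to 3. Summed over the list, astrocyte and radial glia-like cells had 5879 CPM at E50, 3595, 5126 and 6302 at E60, 4938, 5619 and 5317 at E70, and 437 in the adult whole cells. The excitatory neuron-like background was 638 at E50, 715 in E60 library 3 and 793, 646 and 651 at E70. Oligodendrocyte precursor-like cells had 4255 at E50, 4741, 5248 and 2820 at E60 and 3019 in E70 library 3. Intermediate progenitor-like cells lay nearer to the neurons, with 1057 at E50, 844 in E60 library 3 and 748, 815 and 836 at E70. They were above the neurons of the same library except in E70 library 1, where they were below. These levels depend on the naming of clusters, since the class is cluster 15 alone. By the marker UMIs of each cell, 284 cells of cluster 15 were intermediate progenitor-like, as were 64 of cluster 31 and 81 of cluster 32. Clusters 31 and 32, which had 12733 and 7615 CPM of the list, lay outside the class.

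**Figure D2:**
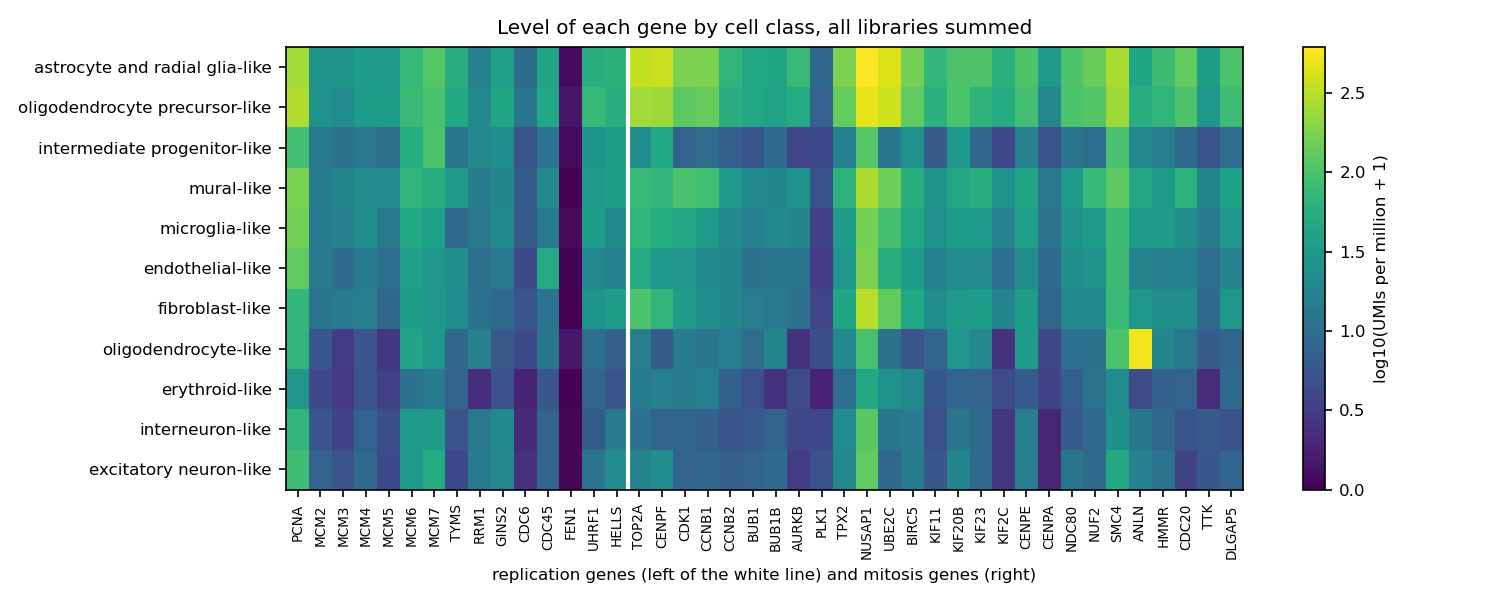
Level of each of the 42 genes in 11 cell classes, as log10 of (CPM + 1) over all libraries summed, with the replication genes and the mitosis genes in separate blocks. Astrocyte and radial glia-like and oligodendrocyte precursor-like cells had high levels of most mitosis genes, and ANLN was highest in oligodendrocyte-like cells.

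Among the replication genes, PCNA, the sliding clamp of the DNA polymerases, had 265 CPM at E50 in astrocyte and radial glia-like cells, 245, 339.9 and 162 at E60, 241, 177 and 198 at E70 and 51.2 in the adult whole cells. In microglia-like cells PCNA was 132 at E50, 176, 223 and 93.5 at E60, 144, 128 and 97.1 at E70 and 115 in the adult. PCNA thus fell short of its fetal range in the adult astrocyte class but lay within it in the adult microglia-like cells, so a UMI of PCNA alone did not separate stages in that class.

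MCM2, a subunit of the replicative helicase, was highest at E50 in astrocyte and radial glia-like cells, at 49.96 CPM, against 17.6, 20.5 and 12.8 at E60 and 25.1, 10.5 and 12.8 at E70. MCM5, another subunit, whose gene lies on an unplaced scaffold, followed the same order with 60.9 at E50, 19.4, 26.4 and 16.6 at E60 and 25.1, 25.2 and 18.4 at E70. For both genes the E50 library lay above all 6 later fetal libraries. TYMS, which makes thymidylate, had 69.99 at E50, 55.1, 72.1 and 24.4 at E60 and 75.4, 27.3 and 17.4 at E70. Its values overlapped between the stages. In microglia-like cells TYMS stayed low, at 2.53 at E50, 6.74, 19.3 and 4.45 at E60 and 7.03, 9.16 and 4.90 at E70.

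HELLS, a chromatin remodeller, and UHRF1, which brings the maintenance methyltransferase to copied DNA, act on chromatin behind the fork. In astrocyte and radial glia-like cells HELLS had 81.2 CPM at E50, 40.2, 48.0 and 90.4 at E60, 7.18, 31.5 and 84.4 at E70 and 111 in the E70 nuclei. UHRF1 had 73.7 at E50, 48.9, 54.4 and 62.5 at E60, 35.9, 58.9 and 51.0 at E70 and 37.1 in the nuclei. HELLS ranged more widely than UHRF1 between the E70 libraries. Library 1 there rests on 19 cells with 278427 UMIs in all, so its low HELLS value comes from very few UMIs. FEN1, a flap nuclease, had 27 UMIs in all libraries together, and nothing can be read from it.

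Of the mitosis genes, TOP2A, the topoisomerase that untangles sister chromatids, had 420.0 CPM at E50 in astrocyte and radial glia-like cells, 223, 295 and 563 at E60 and 427, 490.0 and 482 at E70. In adult whole cells TOP2A was 11.7. In oligodendrocyte precursor-like cells TOP2A was 209 at E50, 285, 432 and 179 at E60 and 209.5 in E70 library 3. In microglia-like cells TOP2A was lower, with 31.03 at E50, 74.8, 112 and 61.4 at E60, 49.2, 22.9 and 80.4 at E70 and 7.51 in the adult. In each library that held these classes, TOP2A was higher in both progenitor classes than in microglia-like cells.

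CENPF, a kinetochore protein, varied widely among the E60 libraries in astrocyte and radial glia-like cells, with 549.8 CPM at E50, 154, 229 and 734 at E60 and 229.9, 456 and 600.3 at E70. In both stages library 3 was the highest. SMC4, a condensin subunit, had 363 at E50, 202, 261 and 358 at E60, 341, 328 and 241 at E70 and 176 in the E70 nuclei, and did not follow this order. KIF11, the motor that pushes the spindle poles apart, had 76.0 at E50, 51.0, 56.0 and 119 at E60, 104, 107 and 96.2 at E70 and 111 in the nuclei. CENPE, a kinetochore motor, had 128 at E50, 62.0, 84.1 and 186 at E60 and 176, 162 and 156 at E70. HMMR, which acts at the spindle, had 95.5 at E50, 52.6, 75.2 and 133 at E60 and 115, 96.7 and 102 at E70. KIF11, CENPE and HMMR were each lower in the E60 libraries 1 and 2 than in the other fetal whole cell libraries.

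The kinase and cyclins that drive entry into mitosis did not follow that order. CDK1, the mitotic kinase, had 137 CPM at E50, 173, 255 and 161 at E60 and 104, 206 and 149 at E70 in astrocyte and radial glia-like cells. CCNB1, its cyclin partner, had 144 at E50, 167, 256 and 146 at E60 and 179.6, 227 and 138 at E70. For both genes E60 library 2 was the highest of the fetal whole cell libraries. CCNB2, the second B-type cyclin, had 90.7 at E50, 45.2, 69.8 and 69.5 at E60 and 82.6, 77.8 and 59.4 at E70, and was highest at E50. BIRC5, a subunit of the chromosomal passenger complex, had 186 at E50, 117, 199.8 and 199.7 at E60 and 198, 145 and 169 at E70. The E60 and E70 values overlapped for each of these 4 genes.

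UBE2C, the ubiquitin-conjugating enzyme that works with the anaphase-promoting complex, was abundant in every fetal whole cell library. In astrocyte and radial glia-like cells UBE2C had 446 CPM at E50, 298, 548 and 599.8 at E60 and 312, 538 and 473 at E70. In E70_nc, Adult_nc and the adult whole cells no UMI of UBE2C was found in any class. A count of 0 there allows 0.971, 1.28 and 0.413 CPM over the whole library, and the 7 fetal whole cell libraries held 186 to 7116 UMIs of UBE2C each. None of the 16 dividing astrocyte and radial glia-like nuclei had a UMI of UBE2C, while 7 of the 16 (43.8%) had one of TOP2A. In the dividing whole cells of this class 40.0 to 51.8% had a UMI of UBE2C. This pattern was chosen after the values of UBE2C had been seen, and nuclei differ from whole cells in tissue state, sorting and depth as well as in which RNA they hold, which cannot be told apart. Among the other mitosis genes CDC20, an activator of the anaphase-promoting complex, also had 0 UMIs in both libraries of nuclei, but 56 in the adult whole cells.

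The promoters of these genes are shown because mitosis genes are known to share short motifs upstream of their start, the CCAAT box bound by NF-Y and the CHR element, and replication genes the E2F site. Sequences are RefSeq on Sscrofa11.1, and 44 of the 45 listed genes, RRM2, CCNA2 and AURKA among them, had a promoter of 300 bases, with 250 bases before and 50 after the gene start. The first 4 below are mitosis genes whose levels are given above and the last, MCM6, is a helicase subunit, with 150 bases each that end just before the gene start, on the plus strand. Capitals mark CCAAT, the CHR (TTTGAA or TTTAAA) and the E2F site (TTTGGCGC, TTTCGCGC, TTTCCCGC or TTTGCCGC) on either strand, so that CCAAT may stand as ATTGG, and overlapping matches run together. The windows are chr12:22001150-22001299 for TOP2A, chr14:64233795-64233944 for CDK1, chr16:47338089-47338238 for CCNB1, chr17:48018253-48018402 for UBE2C and chr15:15923488-15923637 for MCM6.
TOP2A: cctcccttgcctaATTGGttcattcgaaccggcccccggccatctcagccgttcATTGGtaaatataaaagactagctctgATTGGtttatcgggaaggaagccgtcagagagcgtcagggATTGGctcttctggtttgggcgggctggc
CDK1: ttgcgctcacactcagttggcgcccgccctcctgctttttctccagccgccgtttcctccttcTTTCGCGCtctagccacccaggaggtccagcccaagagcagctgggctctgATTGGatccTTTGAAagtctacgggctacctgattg
CCNB1: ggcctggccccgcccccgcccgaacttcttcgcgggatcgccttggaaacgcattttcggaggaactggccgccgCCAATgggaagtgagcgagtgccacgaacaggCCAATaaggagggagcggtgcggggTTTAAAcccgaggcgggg
UBE2C: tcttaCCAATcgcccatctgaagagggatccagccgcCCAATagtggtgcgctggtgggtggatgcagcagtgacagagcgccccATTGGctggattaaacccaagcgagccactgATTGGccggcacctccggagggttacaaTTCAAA
MCM6: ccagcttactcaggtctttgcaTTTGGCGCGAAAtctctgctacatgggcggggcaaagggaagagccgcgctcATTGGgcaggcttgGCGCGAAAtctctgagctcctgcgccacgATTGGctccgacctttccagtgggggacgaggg

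A CCAAT box stood in the 300 bases of 23 of 29 mitosis genes (79.3%) and 8 of 15 replication genes (53.3%), against 35.4% of all 19544 promoters of protein-coding genes. A CHR stood in 65.5% of the mitosis genes and 26.7% of the replication genes, against 23.0% of all promoters. CCAAT and CHR stood together in 48.3% of the mitosis genes, against 9.04% of all. The E2F letters were found in 26.7% of the replication genes, 13.8% of the mitosis genes and 3.36% of all. A match describes the letters of the sequence and is not evidence of binding.

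Which genes of the list move with division was described by calling a cell dividing from the other genes of the list only. In astrocyte and radial glia-like cells UBE2C had a UMI in 45.7% of the cells that were dividing by the other genes and in 0.665% of the cells with no other gene of the list. TOP2A had 44.6 and 0.476%, CENPF 38.3 and 0.806%, CDK1 32.7 and 0.853% and CCNB1 26.4 and 0.381%. These genes were thus almost absent from the cells that had nothing else of the list. PCNA, at 34.8 and 7.64%, and SMC4, at 42.2 and 4.43%, were less exclusive.

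NUSAP1, a microtubule-binding protein, was the most often found in these cells, at 62.1%, but it was also seen in 12.7% of those with no other gene of the list. It was chosen after its values were seen. Its gene model overlaps that of OIP5 on the other strand over 17581 bases, and intronic reads of the pair are told apart only if the counting used strand. In the excitatory neuron-like cells that passed the call by the other genes, NUSAP1 was again the most frequent, at 13.7%.

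**Figure D3:**
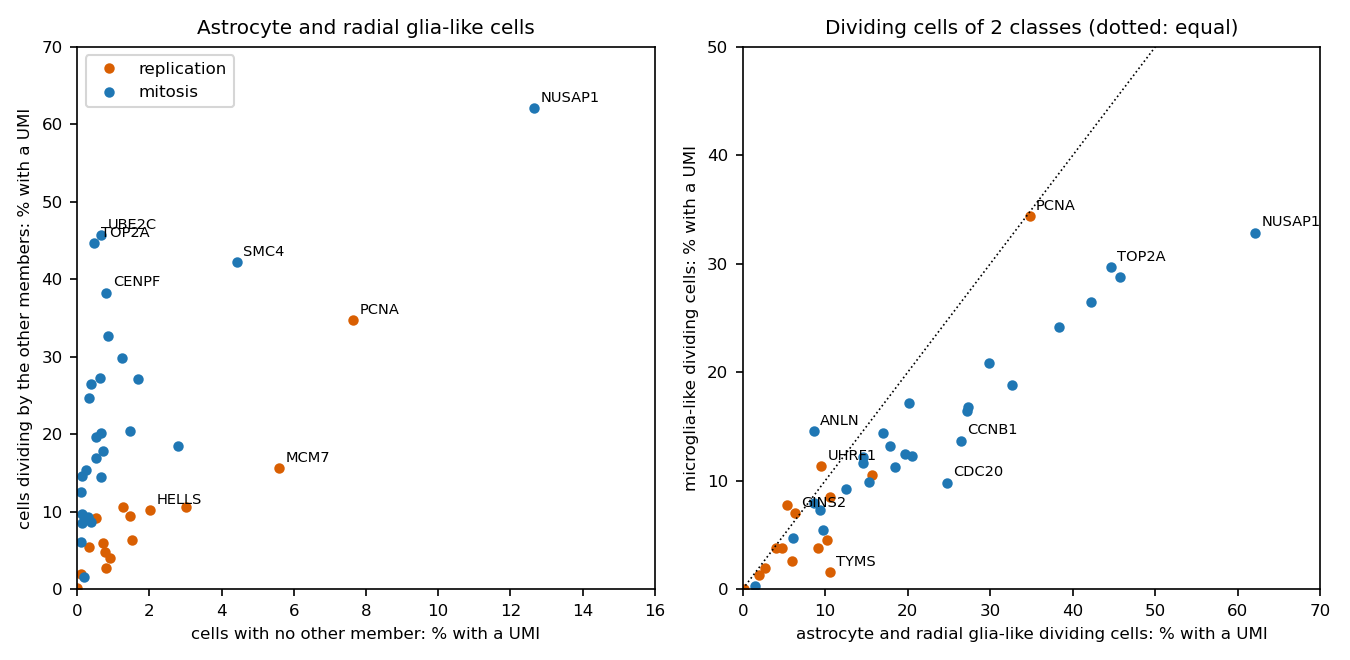
Share of astrocyte and radial glia-like cells with a UMI of each gene (percent), in cells dividing by the other genes of the list against cells with no other gene of the list (left), and the same share in dividing microglia-like against dividing astrocyte and radial glia-like cells (right). Each point is 1 gene; UBE2C, TOP2A and CENPF had 45.7, 44.6 and 38.3% in dividing astrocyte and radial glia-like cells, and 28.8, 29.7 and 24.2% in dividing microglia-like cells.

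In microglia-like cells that were dividing by the other genes, PCNA was found in 34.4%, TOP2A in 29.7%, UBE2C in 28.8%, SMC4 in 26.5% and CENPF in 24.2%. The shares of TOP2A, UBE2C, SMC4 and CENPF were below those among astrocyte and radial glia-like cells, and that of ANLN was above (14.6 against 8.64%), which was not tested. In oligodendrocyte precursor-like cells UBE2C was found in 41.5%, TOP2A in 39.1% and PCNA in 38.7%. TYMS was rarely found in dividing microglia-like cells, since 1.58% of them had a UMI of it, with 0 of 13 at E50, 3 of 164, 1 of 84 and 0 of 27 at E60 and 1 of 11 in E70 library 3. In dividing astrocyte and radial glia-like cells TYMS had 38 of 372 at E50, 83 of 658, 60 of 522 and 5 of 114 at E60 and 5 of 99 in E70 library 3. The cells were thinned to the same depth, and the difference was not tested.

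**Figure D4:**
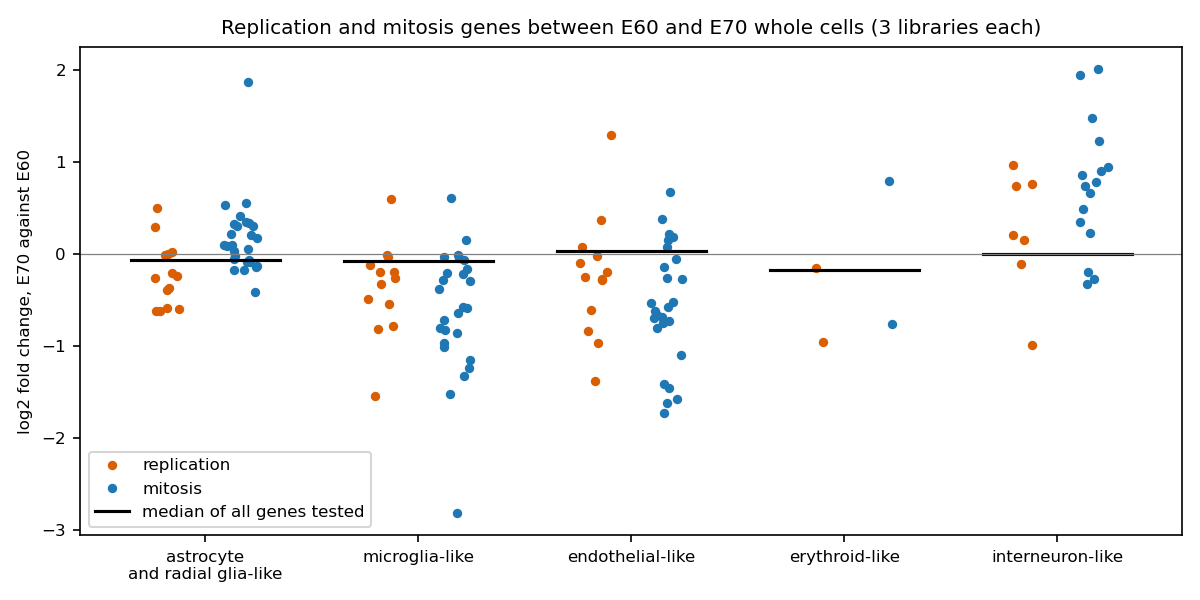
Log2 fold change of each gene of the list from E60 to E70 whole cells in 5 classes (edgeR, 3 libraries each), with 1 point per gene and a black bar at the median of all genes tested. The genes lay mostly below 0 in microglia-like and endothelial-like cells and mostly above it in interneuron-like cells, and none passed an adjusted p of 0.05.

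Between E60 and E70 whole cells, edgeR's quasi-likelihood test on counts summed per library and class called no gene of the list at an adjusted p under 0.05 in any of 5 classes. Of all genes tested, 0.0% were called in astrocyte and radial glia-like, microglia-like, endothelial-like and interneuron-like cells, and 0.0705% in erythroid-like cells (2 of 2835). The first 3 of these classes were added with a minimum of 10 cells per library after the data had been seen. At an unadjusted p under 0.05 there were 1 of 41 genes of the list in astrocyte and radial glia-like cells (all genes 15.8%), 4 of 39 in microglia-like cells (17.4%), 6 of 39 in endothelial-like cells (18.6%), 0 of 4 in erythroid-like cells (17.6%) and 3 of 23 in interneuron-like cells (27.4%). Each of these shares lies below that of all genes. In simulated counts with the spread of these libraries, the test recovered 32.3% of 4-fold changes for the astrocyte and radial glia-like class, 13.3% for microglia-like, 42.9% for endothelial-like, 29.1% for interneuron-like and 0% for erythroid-like cells, and at most 3.49% of 2-fold changes for any of them, so smaller changes were not detectable.

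In astrocyte and radial glia-like cells the median log2 fold change of the list was 0.00, with 20 genes negative and 21 positive, against -0.06 for all genes tested. Clusters 5 and 13 held 775 and 423 cells of E60 library 1 and 397 and 199 of E60 library 2, but at most 6 of any E70 library. Cluster 24 held 0, 0 and 137 cells at E60 and 5, 3 and 111 at E70. Stage and cell composition thus cannot be told apart in this class, here or in the share of dividing cells. The replication genes had a median of -0.25 and the mitosis genes of 0.09. The lowest were MCM4 (-0.63), a helicase subunit, GINS2 (-0.62), which joins the helicase to the fork, and TYMS (-0.60). The highest was PLK1, a mitotic kinase, at 1.88 (SE 0.70, adjusted p = 0.270 by edgeR), from 3.82, 6.75 and 7.56 CPM at E60 to 32.3, 37.9 and 5.90 at E70. BUB1B (0.56), of the spindle checkpoint, and CENPE (0.54) followed.

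PLK1 was high in the E70 libraries 1 and 2 and not in library 3, and this held in other classes. In excitatory neuron-like cells PLK1 had 21.9 and 20.4 CPM in the E70 libraries 1 and 2 and 2.12 in library 3, and in interneuron-like cells 17.6, 27.1 and 2.12. In microglia-like cells PLK1 had 17.6, 22.9 and 3.92, and in intermediate progenitor-like cells 17.1, 24.3 and 1.92. CDC45, a part of the active helicase, was likewise higher in the E70 libraries 1 and 2 than in library 3. It had 25.1, 15.9 and 4.54 CPM in excitatory neuron-like cells and 45.7, 27.5 and 3.92 in microglia-like cells. Neurons and dividing classes thus shared the difference, while the library numbers of the study put the E70 libraries 1 and 2 in different pools. Without E70 library 3, edgeR called PLK1 higher at E70 in astrocyte and radial glia-like, microglia-like and interneuron-like cells, and CDC45 in endothelial-like and erythroid-like cells. The shares of all genes called in these fits are not given here.

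In microglia-like cells 36 of 39 genes of the list were negative, with a median log2 fold change of -0.38 against -0.07 for all genes. The lowest was CDC20, at -2.82 (SE 1.03, adjusted p = 0.199 by edgeR), from 30.004, 34.6 and 4.90 CPM at E60 to 10.6, 0 and 1.96 at E70. MCM5 (-1.55) and UBE2C (-1.52) followed, and UBE2C went from 121, 169 and 34.3 to 45.7, 36.6 and 41.2 CPM. For CDC20 E60 library 3 lay among the E70 values and for UBE2C below them, while the 2 other E60 libraries lay above them. The highest were BUB1B (0.60), CDC45 (0.60) and KIF11 (0.15). Leaving out the E60 libraries 1 and 2 turned UBE2C to 0.38, BUB1B to -0.06 and KIF11 to -0.35 on the log2 scale.

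In endothelial-like cells 30 of 39 genes were negative, with a median of -0.52 against 0.03 for all genes. CCNB1 had 26.2, 24.0 and 23.9 CPM at E60 and 10.7, 4.79 and 6.10 at E70, a log2 fold change of -1.73 (SE 0.38, adjusted p = 0.125 by edgeR). UBE2C had 66.6, 70.1 and 38.2 at E60 and 28.6, 7.18 and 17.7 at E70 (-1.62, adjusted p = 0.134 by edgeR). For both genes the 3 E60 libraries lay above the 3 E70 libraries, and the same was true of CDK1, with 33.6, 34.8 and 24.3 against 10.7, 12.0 and 10.98 (-1.41). CDC20 (-1.57) followed, with 17.7, 19.99 and 11.7 against 5.36, 14.4 and 1.22 CPM. DESeq2 called CCNB1, CDK1 and UBE2C at an adjusted p under 0.05 and edgeR did not, and the E70 values rest on 11, 13 and 66 cells. The share of all genes that DESeq2 called is not given here. The highest was CDC45, at 1.29, with 31.7, 36.8 and 24.3 at E60 and 80.4, 129 and 20.1 at E70, followed by ANLN (0.67) and HMMR (0.38).

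In interneuron-like cells, where few cells divide, 18 of 23 genes were positive, with a median of 0.74 against 0.00 for all genes. All interneuron-like cells of the E60 libraries 1 and 2 lay in clusters 3 and 35 (638 and 91, and 91 and 0 cells), whereas most of E60 library 3 and of E70 lay in clusters 16 and 27 (152 and 153 cells in E70 library 3, against 20 in cluster 3). The highest were BUB1B, at 2.01, KIF11, at 1.95, and NDC80, a kinetochore protein, at 1.48. BUB1B had 1.91, 0 and 8.85 CPM at E60 and 27.2, 19.7 and 8.47 at E70, where the groups overlapped (adjusted p = 0.153 by edgeR). KIF11 had 1.91, 3.38 and 2.95 at E60 and 12.8, 11.09 and 10.1 at E70, and here the groups did not overlap (adjusted p = 0.105 by edgeR). The lowest were GINS2 (-0.99), NUSAP1 (-0.33) and NUF2 (-0.27). Without E60 library 3, edgeR called 7 genes of the list in this class, 6 of them higher at E70. The share of all genes called in that fit is not given here, so the 7 calls cannot be set against it. In the main fit 27.4% of all genes of this class had an unadjusted p under 0.05 by edgeR. In erythroid-like cells only 4 genes of the list passed the filter on low counts, PCNA (-0.96), NUSAP1 (-0.77), MCM7 (-0.15) and CENPF (0.79), with a median of -0.46 against -0.18 for all genes.

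Genes of the cell cycle that are not on the list were described in dividing cells against cells with no gene of the list, within each fetal whole cell library that held at least 10 of both. Of the other S and M phase genes with at least 5 CPM, 81 of 81 were higher in each of 5 libraries in astrocyte and radial glia-like cells, where 15.7% of all genes were, with a median log2 difference of 2.46. In oligodendrocyte precursor-like cells 77 of 81 were higher in each of 4 libraries (all genes 13.1%), in microglia-like cells 75 of 81 in each of 5 (12.1%) and in endothelial-like cells 76 of 79 in each of 3 (21.2%). The cells were chosen by genes that are known to rise with these, and dividing cells had more UMIs in 16 of 17 sets of cells (0.896 to 1.58 times the median), so these counts are a description without a test.

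The genes of G1 phase moved less. Of the cyclins, kinases and E2F/RB genes that control entry into S phase, 13 of 21 were higher in every library in astrocyte and radial glia-like cells, 9 of 21 in oligodendrocyte precursor-like, 8 of 20 in microglia-like and 9 of 19 in endothelial-like cells. CDK4, the kinase of the D-type cyclins, had a mean log2 difference of 1.04, 0.58, 0.85 and 0.78 in these 4 classes, and RBL1, of the RB family, of 1.25, 0.98, 1.77 and 1.07. Of the CDK inhibitors and genes of cell cycle exit, 2 of 10 were higher in every library in astrocyte and radial glia-like cells, near the 15.7% of all genes, and in endothelial-like cells 2 of 11 were higher and 5 of 11 lower. CDKN2C, an inhibitor of CDK4 and CDK6, was one of them, with 44.7 CPM in dividing and 1.66 in the other cells (log2 2.79), and it was also higher in every library in the 3 other classes (1.98, 1.88 and 1.65). CDKN1C, an inhibitor of cyclin-dependent kinases, went the other way in oligodendrocyte precursor-like cells, with 15.8 CPM in dividing and 37.4 in the other cells (log2 -1.11, lower in 4 of 4 libraries). Genes lower in every library made up 19.9% of all genes in the first class and 10.9, 5.38 and 16.7% in the others. CDK4, RBL1, CDKN2C and CDKN1C were chosen after their values were seen.

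**Figure D5:**
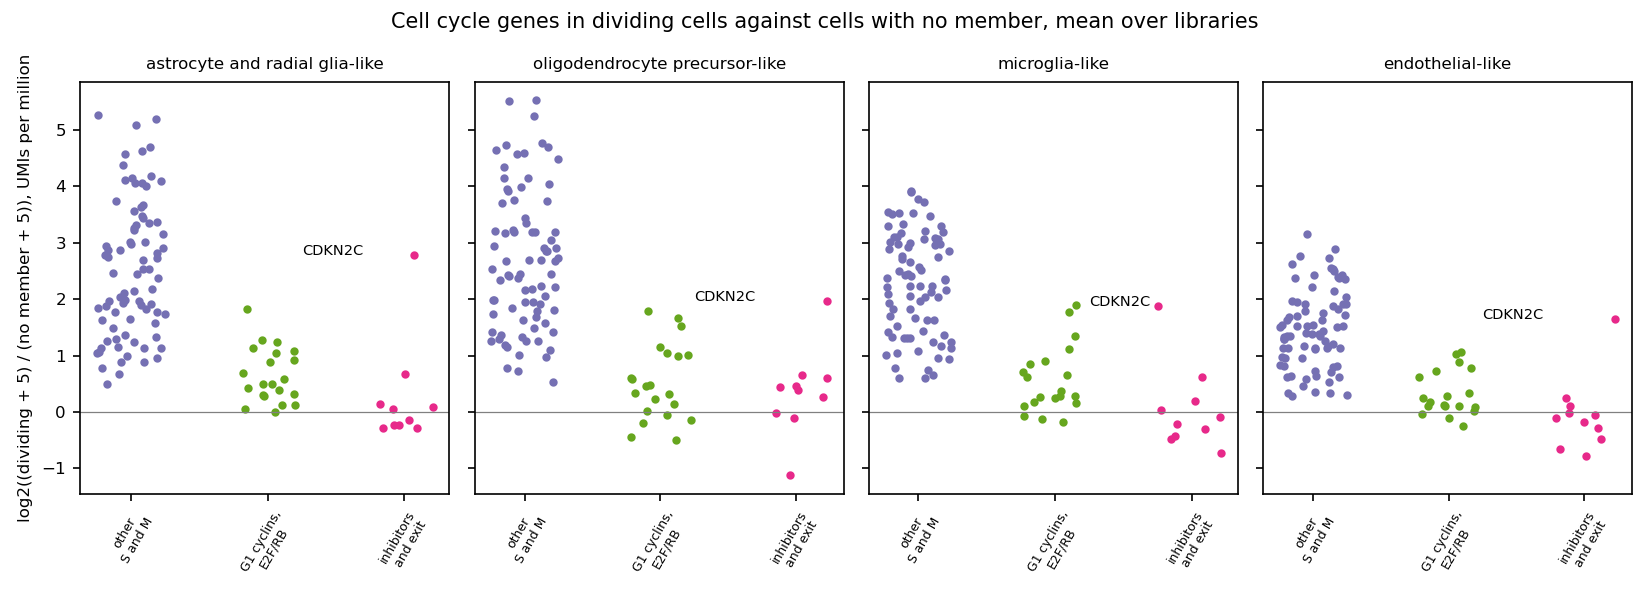
Mean log2 difference between dividing cells and cells with no gene of the list, over the fetal whole cell libraries, for 3 lists of cell cycle genes that are not members of the list in 4 classes. Each point is 1 gene; the other S and M phase genes lay at medians of 1.40 to 2.53, the G1 genes at 0.17 to 0.50 and the inhibitors at -0.16 to 0.42.

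Between E60 and E70 the same lists held no gene past an adjusted p of 0.05 by edgeR in the 5 classes. The other S and M phase genes had a median log2 fold change of 0.00 in astrocyte and radial glia-like, -0.15 in microglia-like, -0.42 in endothelial-like, -0.57 in erythroid-like and 0.25 in interneuron-like cells. These had the same sign as the medians of the 42 genes in the last 4 classes.

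In the adult, genes of the list were found in cells that were not dividing by the rest of it. ANLN, which scaffolds the cleavage furrow, had 514 CPM in oligodendrocyte-like cells of the adult whole cells and 789 in those of the adult nuclei, against at most 11.8 in the fetal libraries. It was chosen after its values were seen. With the whole list, 12.9% of the adult oligodendrocyte-like nuclei (43 of 333) were called dividing. Without ANLN, NUSAP1, PCNA and SMC4 together in the call, this was 1.20%, which does not give the part of ANLN alone. Over all libraries 56 oligodendrocyte-like cells were called with the whole list, and 25 passed by the genes other than ANLN. In oligodendrocyte-like cells ANLN was found in 32% of the cells dividing by the other genes and in 38.5% of those with no other gene of the list, the opposite of its order in the dividing classes. CDC45 had 246 CPM in adult endothelial-like cells, above the 20.1 to 129 of the fetal whole cell libraries, while TOP2A was 5.66 CPM and UBE2C 0 in the same cells.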

How the data were processed

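Droplet libraries (10x Genomics version 2) of 10 samples were analysed, each placed in its group by its title. Per the labels and the methods of the study, the authors mapped reads with Cell Ranger to Sscrofa11.1 (Ensembl annotation, introns included). The deposited files hold raw UMI counts per gene and cell, with no normalization, and no other unit was used.

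The members and gene lists were chosen with earlier results of these data known. Counts were scaled to 10000 UMIs per cell, and 3000 variable genes without the 163 genes of the cell cycle lists found were used. Libraries were merged by mutual nearest neighbours and cells were clustered by the Louvain method (igraph 0.11.9, resolution 1.6). Of 49 clusters, those with at least 3 detected markers (each in at least 10% of cells) and a list score of at least 0.5 were named, unless, cell cycle genes aside, their 10 leading genes held more markers of another class or their 50 leading genes none of their own. The last condition was lifted where at least 5 of the 10 leading genes were cell cycle genes, which named cluster 7. Also, intermediate progenitors needed EOMES in at least 25% of cells. These rules were set after the data had been seen. Doublets were kept, and leaving out the 1077 that Scrublet (scanpy 1.11.5) ranked highest was an alternative.

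UMIs were summed per library and class and tested with edgeR 4.0.16 (TMM, filterByExpr, robust quasi-likelihood, Benjamini-Hochberg over all genes tested), with DESeq2 1.42.0 as an alternative. Classes needed 20 cells in each of the 6 libraries, or 10 for those added. Shares were compared by exact permutation tests over libraries (SciPy 1.17.1), since cells are not replicates. Where libraries held pooled brains, p-values measure only the spread between libraries. The edgeR step was checked on simulated counts.

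Values per library were given for a fixed set of 18 genes (RRM2 among them was not analysed) and, in each fit, for the 3 highest and 3 lowest genes and those past the threshold.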

Additional observations from a re-analysis of the deposited data

Results flagged for a closer look

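In data outside the tested comparison, values stood above their background in 5 cases. None of them has a replicate library, so none was tested. The share of dividing astrocyte and radial glia-like cells in the E70 nuclei was 14.0%, against 2.65% in excitatory neuron-like nuclei of the same library. In the adult nuclei the share in oligodendrocyte-like cells was 12.9%, of which 1.20% was left without ANLN, NUSAP1, PCNA and SMC4 in the call. ANLN had 514 CPM in oligodendrocyte-like cells of the adult whole cells and 789 CPM in those of the adult nuclei. CDC45 had 246 CPM in endothelial-like cells of the adult whole cells.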

How the results depend on the processing

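Of the alternatives tried on the shares and on the counts of genes called, 264 kept the direction and the side of the threshold, 22 turned the direction and 8 brought a call; of those on single genes, 315, 20 and 7 did. The minimum of 10 cells, and the call without ANLN, NUSAP1, PCNA and SMC4, were chosen after seeing the data.

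For the share between E60 and E70 (percentage points, E70 minus E60), astrocyte and radial glia-like cells turned to -14.1 with cell cycle genes kept in the clustering, -14.2 with classes from marker UMIs, -2.10 at resolution 0.8, -0.0853 at 2000 UMIs and -4.00 without the E60 libraries 1 and 2. Endothelial-like cells turned to 13.0 with no thinning, 3.34 at 2000 UMIs and 0.406 without these libraries, microglia-like cells to 20.6 with no thinning, and interneuron-like cells to -0.412 with at least 5 genes, -0.292 with cell cycle genes kept and -0.134 without ANLN, NUSAP1, PCNA and SMC4. Leaving out 1 library at a time gave -3.10 to 5.81 in astrocyte and radial glia-like, -6.00 to 3.09 in endothelial-like, -0.402 to 0.834 in interneuron-like, -5.62 to -2.96 in microglia-like and -3.55 to -1.91 in erythroid-like cells. Of the differences from astrocyte and radial glia-like cells, that of endothelial-like cells turned to -5.64 with no thinning, that of intermediate progenitor-like cells to -2.77 with classes from marker UMIs (higher in 3 of 5 libraries, and 4.402 without E60 library 1, whose 35 cells gave -31.5), and that of oligodendrocyte precursor-like cells to -1.24 with cell cycle genes kept, -5.78 at resolution 0.8 and -0.949 to 9.07 without 1 library. The cause was not tested.

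For the genes called between E60 and E70, DESeq2 called 3 in endothelial-like cells. The shares of all genes called in this fit and in those without 1 library are not given here. Leaving out 1 library gave 0 to 1 in astrocyte and radial glia-like, endothelial-like, erythroid-like and microglia-like cells and 0 to 7 in interneuron-like cells (BUB1B, HMMR, KIF20B, MCM7, NDC80 and SMC4 higher and GINS2 lower without E60 library 3). Log2 fold changes turned without the E60 libraries 1 and 2 in astrocyte and radial glia-like cells (BUB1B -0.039, CENPE -0.16, MCM4 0.044, TYMS 0.59), microglia-like cells (BUB1B -0.057, KIF11 -0.35, UBE2C 0.38) and erythroid-like cells (CENPF -0.27). They also turned for CENPE in astrocyte and radial glia-like cells with marker UMIs (-0.28), MCM7 in erythroid-like cells with DESeq2 (0.018) and KIF11 in microglia-like cells with no filter (-0.017), and for 5 genes without 1 library, where CDC45 ranged from -0.36 to 1.20 and KIF11 from -0.20 to 0.46 in microglia-like cells, CENPF from -0.99 to 1.45 and MCM7 from -0.58 to 0.59 in erythroid-like cells and NUF2 from -0.89 to 0.21 in interneuron-like cells.

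The labels give same-numbered libraries no shared animal or batch, their deviations correlated between -0.21 and 0.23, and they were not taken as pairs, although the numbers of the study read as pools join 2 of the 3 pairs. With the replicate number as a block, edgeR called 0 genes of the list in each class, and CENPF (-0.029) and MCM7 (0.31) turned in erythroid-like cells. Clusters within each library gave no fit of single genes in most classes, and some classes held too few cells with marker UMIs or at resolution 0.8. Depth limits the nuclei and erythroid-like cells most.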

Other observations

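In the adult nuclei 3 of 41 interneuron-like cells (7.32%) and 9.15% of all thinned nuclei were called dividing, and in the adult whole cells 9 of 196 oligodendrocyte-like cells (4.59%). Because 76.9% of the adult nuclei had fewer than 1000 UMIs, these shares describe the deeper nuclei.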
